A study of Mus musculus with 6 samples.

Results

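The genes described here are 39 genes of the TNF, Toll-like receptor and NF-kB pathway, chosen by name from the 24129 gene rows of the table. All 39 were found in it. They were measured by RNA sequencing in T1 and T2 cells, with 3 replicates of each. Both populations descend from 4T1, a mammary carcinoma line of BALB/c mice and a model of triple negative breast cancer, which had been tagged with GFP and grown as a tumor in mice. T1 cells, named 4T1A in the labels, had low GFP, an adherent epithelial form and a high proliferation rate, and were aggressive in mice. T2 cells, named 4T1NA, had high GFP, were round and loosely attached, proliferated slowly and were less aggressive. Both were taken from the same primary tumor, from a culture sorted for fibroblasts that tumor cells had outgrown, and were then sorted apart by GFP. T1 and T2 cells grew in the same medium, DMEM/F-12 with serum, and T2 cells were passaged like a suspension. No agent that activates the pathway is named for either population. The labels call the replicates independent but do not say in what, so the p-values measure the spread between these samples, which may be technical.

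NF-kB is a family of transcription factors that work as dimers and are held inactive by IkB proteins. In the canonical branch, receptors for TNF and interleukin-1 and Toll-like receptors recruit adaptors such as the TRAF proteins or MyD88 and activate the IKK kinases, which mark IkB for degradation. In the non-canonical branch, receptors such as CD40 or Fn14 stabilize the kinase NIK, which leads to processing of p100, the product of Nfkb2. Several genes of the pathway, among them those of the inhibitors IkB alpha and A20, are themselves switched on by NF-kB, which gives negative feedback. In mammary tumors the pathway is known for its part in cytokine production, survival and invasion.

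The libraries held 18133227 to 20839686 reads on genes, and in the deposited normalized counts 1 read was worth 0.928 to 1.06. Of 8 epithelial marker genes 7 averaged 10 normalized counts or more, and Krt8 and Krt18, keratins of simple epithelia, lay between 17356 and 25833 normalized counts in every library. Epcam had 2989, 2931 and 3502 normalized counts in T1 cells and 37.2, 30.7 and 36.2 in T2 cells, and Cdh1 had 14748 ± 908 (SD, n = 3) against 465 ± 16.2. The 14 leukocyte marker genes summed to 61.4 to 95.6 normalized counts in T1 and to 97.4 to 132.1 in T2 libraries, and 6 of them, Tyrobp included, were at 0 in every library. Cd68 was the highest of them, while Ptprc was at 0 in T1 cells and reached 6.14 in T2 cells and Laptm5 reached 1.86. The 9 fibroblast marker genes summed to 225.1 to 241.1 in T1 and to 996.8 to 1297.2 in T2 libraries, with Pdgfra the highest in both. Of these genes 4 were at 0 in every library, Col3a1 included. The collagen genes went against Pdgfra, since Col1a1 had 14.8, 27.9 and 24.4 in T1 cells and 0.979, 0 and 0 in T2 cells, and Col1a2 had 4.23, 6.51 and 11.7 in T1 cells and 0 in T2 cells. The 7 endothelial marker genes summed to at most 16.9, with Kdr at 0 throughout. In bulk RNA, fewer cells that express a gene and less of its RNA per cell cannot be told apart.

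Of the 39 genes, 36 reached an average of 10 normalized counts over the libraries and were compared. T1 cells had more RNA of 14 of them and less RNA of 9 than T2 cells. The rule was an adjusted p under 0.01 in limma on log2(normalized count + 1), and log2 fold changes below are on that scale, while a value given as fold is the ratio of mean normalized counts. Over all 11514 genes compared, 25.1% were higher and 24.4% lower by the same rule, and of the 36 genes these shares were 38.9% and 25%. With the further filter of an absolute log2 fold change above 2, Tnfrsf21 was higher in T1 cells, and Tnfsf10 and Tnfrsf19 were lower. Over all genes compared, 4.17% passed both filters as higher and 4.2% as lower. The median log2 fold change of the 36 genes was 0.30, against -0.01 over all genes compared, and it was 0.21 without T1 replicate 2. Values of T1 and T2 cells did not overlap in 28 of the 36 genes (77.8%), and in 68.1% of all genes compared. Tnfsf10, Tnfrsf11a and Tnfrsf19 passed the filter on low values through T2 cells alone and so had to differ. Without these 3 genes, 14 were higher in T1 cells and 6 were lower (42.4% and 18.2%), and none passed both filters as lower. With such genes left out of all genes compared too, 24.3% were higher and 23.7% lower.

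**Figure D1:**
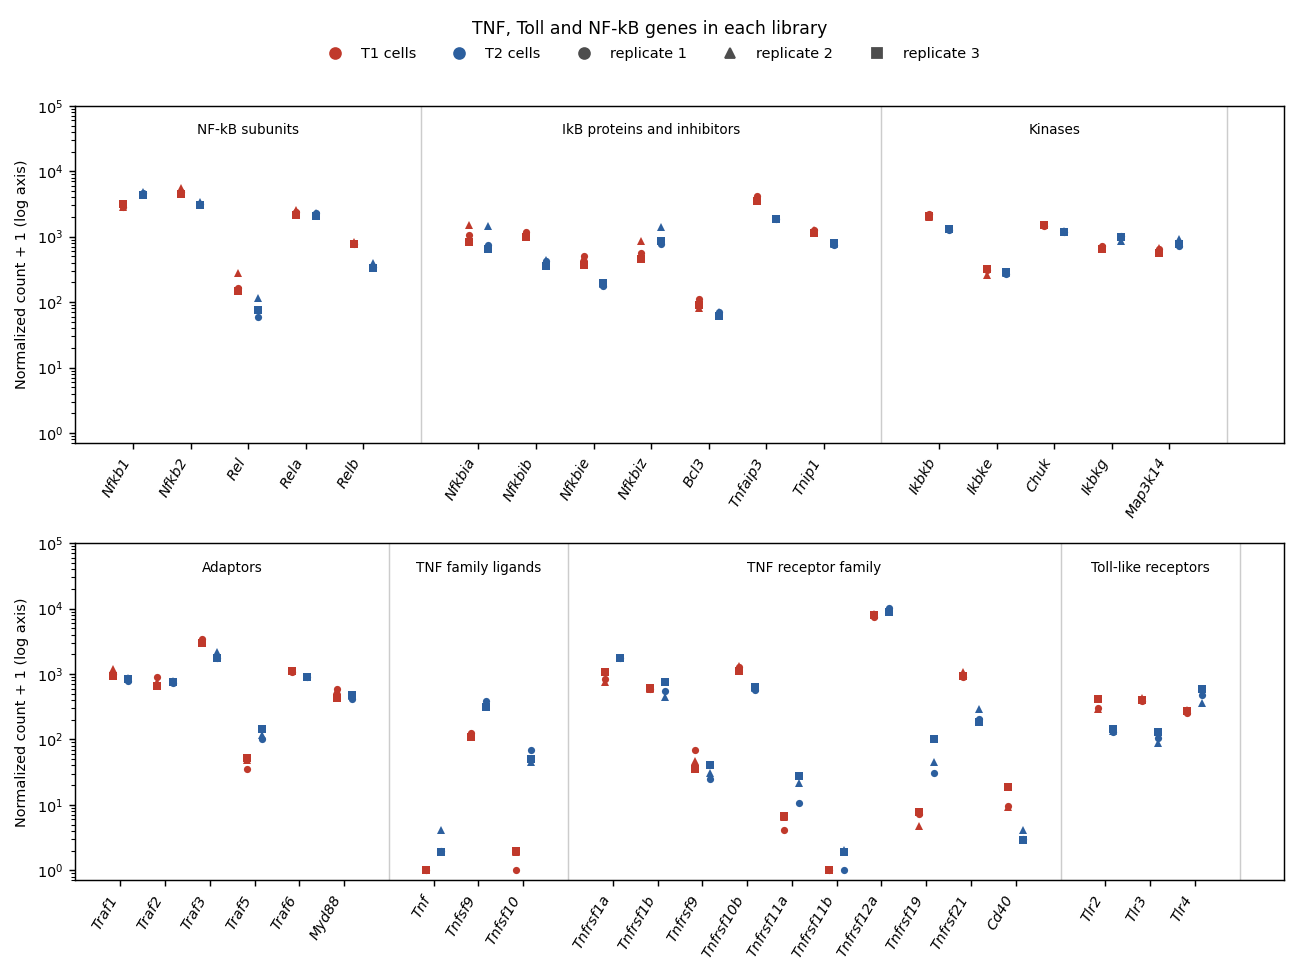
Normalized count + 1 (log axis) of each of the 39 genes in each library, in panels by role, with T1 cells in red and T2 cells in blue and a symbol for each replicate. Tnf and Tnfrsf11b lie near the floor in both populations and Tnfsf10 in T1 cells only, while Tnfrsf12a is the highest gene in both.

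Short stretches of 5 promoters are shown first, because the genes with and without a match to the binding motif of NF-kB before their start site are counted apart below. The 10-base kB motif was searched on both strands in the 250 bases before each RefSeq start site (GRCm38.p6, C57BL/6J mouse), and matches that overlap were joined. RefSeq promoters matched 30 of the 39 genes. Cd40, Ikbkb, Nfkb1, Nfkbiz, Relb, Tlr4, Tnfrsf10b, Tnfrsf11b and Tnfsf9 had no promoter sequence and were not searched. The motif was present in 10 of the 30 genes (33.3%), against 5.44% of the 8840 compared genes with a promoter sequence. Capitals mark the kB motif, and each line runs 5′ to 3′ on the strand of the gene.
Rel, chr11:23770971-23771099, minus strand: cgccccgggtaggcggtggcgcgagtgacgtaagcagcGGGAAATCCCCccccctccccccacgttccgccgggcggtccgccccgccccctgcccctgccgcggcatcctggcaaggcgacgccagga
Tnip1, chr11:54962941-54963070, minus strand: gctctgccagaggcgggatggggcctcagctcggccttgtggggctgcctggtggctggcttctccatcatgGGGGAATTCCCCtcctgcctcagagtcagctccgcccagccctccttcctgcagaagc
Nfkbia, chr12:55492648-55492777, minus strand: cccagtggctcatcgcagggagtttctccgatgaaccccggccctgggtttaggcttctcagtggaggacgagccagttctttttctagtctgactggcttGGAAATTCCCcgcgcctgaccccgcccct
Traf3, chr12:111166240-111166369, plus strand: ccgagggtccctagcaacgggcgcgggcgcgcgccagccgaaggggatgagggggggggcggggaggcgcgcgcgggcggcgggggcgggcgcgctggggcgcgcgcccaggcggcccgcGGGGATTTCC
Nfkbie, chr17:45555570-45555699, plus strand: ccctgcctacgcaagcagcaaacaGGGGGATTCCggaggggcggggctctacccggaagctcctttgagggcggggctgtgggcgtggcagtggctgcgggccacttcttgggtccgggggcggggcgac
The other genes with a match were Nfkb2, Tnfaip3, Tnfrsf9, Tlr2 and Tlr3. Of the 10 genes with a match 8 were higher in T1 cells, none was lower, and Nfkbia and Tnfrsf9 did not pass the threshold. Over all 481 compared genes with a match, 26.6% were higher and 28.5% lower in T1 cells. Of the 20 genes without a match 19 were compared, of which 3 had higher and 6 had lower RNA in T1 cells. Tnfsf10, Tnfrsf11a and Tnfrsf19 are among the 6, and 3 of 16 were lower without them. Of the compared genes without a match, 23.9% were higher and 24.9% lower. Among the genes that were not searched, Ikbkb, Relb and Tnfrsf10b were higher in T1 cells, and Nfkb1, Tlr4 and Tnfsf9 were lower. A match is a description of the letters and not of binding, and its part in these differences was not tested.

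Among the subunits of NF-kB, 3 were higher in T1 cells, 1 was lower and Rela did not pass the threshold. The shares over all genes compared were 25.1% higher and 24.4% lower. Rela encodes p65, the main activating subunit of the canonical branch. It had 2361, 2569 and 2141 normalized counts in the T1 replicates and 2285, 2339.5 and 2106 in the T2 replicates. The groups overlapped, and the log2 fold change was 0.07 (95% interval -0.13 to 0.26). Nfkb1, which encodes p105 and its product p50, had 2855, 2846 and 3127 in T1 cells and 4641, 4900.2 and 4369 in T2 cells. All T1 replicates were below all T2 replicates, with a log2 fold change of -0.66 ± 0.08 (SE, adjusted p = 3.85e-05, limma). Nfkb2, the gene of p100 and p52, went the other way, with 4873, 5529.8 and 4539 in T1 cells and 3176, 3414 and 2999 in T2 cells. Its log2 fold change was 0.64 ± 0.09 (SE, adjusted p = 0.00014, limma). Relb, whose product pairs with p52 in the non-canonical branch, was 2.23-fold higher in T1 cells, with 782, 824 and 776 against 348, 389 and 331 and a log2 fold change of 1.16 ± 0.11 (SE, adjusted p = 6.31e-06, limma). Rel, the gene of c-Rel, had 162, 273 and 148 in T1 cells and 58.8, 117 and 74.2 in T2 cells. All T1 values of Rel were above all T2 values, and replicate 2 was the highest in both populations. Its log2 fold change was 1.22 ± 0.29 (SE, adjusted p = 0.00415, limma). The adjusted p of Rel rose to 0.0178 without T1 replicate 2, 0.022 without T2 replicate 1 and 0.021 without T2 replicate 3, and to 0.0165 in limma without the variance trend.

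The IkB proteins that hold NF-kB in the cytoplasm were not alike. Nfkbib, the gene of IkB beta, had 1159.7, 1121 and 1002 normalized counts in T1 cells and 425, 438 and 354 in T2 cells. It was 2.70-fold higher in T1 cells, with a log2 fold change of 1.43 ± 0.11 (SE, adjusted p = 2.5e-06, limma). Nfkbie, the gene of IkB epsilon, was 2.42-fold higher, with 498, 487 and 363 against 176, 187 and 195 and a log2 fold change of 1.25 ± 0.15 (SE, adjusted p = 4.16e-05, limma). In contrast, Nfkbia, the gene of IkB alpha and a rapid target of NF-kB, had 1074, 1496 and 829.6 in T1 cells and 754, 1459 and 637 in T2 cells. These values overlapped, and the log2 fold change of 0.31 had a 95% interval of -0.33 to 0.95. Nfkbiz and Bcl3 encode nuclear IkB proteins, which modify transcription rather than retain NF-kB, and neither passed the threshold. Nfkbiz, the gene of IkB zeta, had 571, 855 and 449 in T1 and 765, 1393 and 861 in T2 cells, a log2 fold change of -0.69 (adjusted p = 0.0357, limma). Without T1 replicate 2 its log2 fold change was -0.94 with an adjusted p of 0.00671, and without replicate 2 of both populations -0.68 with 0.00695. Nfkbiz also passed the threshold with the replicate block. Bcl3 had 111, 80.0 and 89.8 against 69.5, 70.6 and 60.3, with no overlap and an adjusted p of 0.0602 (limma). Nfkbid, a nuclear IkB gene among the other pathway genes, is named after its values were seen. It was higher in T1 cells, with a log2 fold change of 1.72 (adjusted p = 0.000559, limma).

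Tnfaip3 and Tnip1, whose products act at the receptor complexes to end the signal, were higher in T1 cells. Over all genes compared, 25.1% were higher. Other compared genes of the TNF receptor complex and its ubiquitin and kinase steps numbered 34, of which 9 were higher and 4 lower. Of these, Cyld, Otulin and Tnip2 are named after their values were seen. Cyld (log2 fold change 0.76) and Otulin (0.49) were higher, and Tnip2 (0.30, adjusted p = 0.054, limma) did not pass the threshold. Tnfaip3 encodes A20, which edits ubiquitin chains on the receptor complexes and restrains IKK activation. It had 4242, 3760.0 and 3512 normalized counts in T1 cells and 1833, 1872 and 1866 in T2 cells. The T2 replicates lay close together below all T1 replicates, and the log2 fold change was 1.04 ± 0.08 (SE, adjusted p = 2.67e-06, limma). Tnip1, whose product ABIN-1 binds A20, was 1.57-fold higher in T1 cells, with 1255, 1245 and 1130.2 against 742, 767 and 798 and a log2 fold change of 0.65 ± 0.09 (SE, adjusted p = 0.000102, limma).

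**Figure D2:**
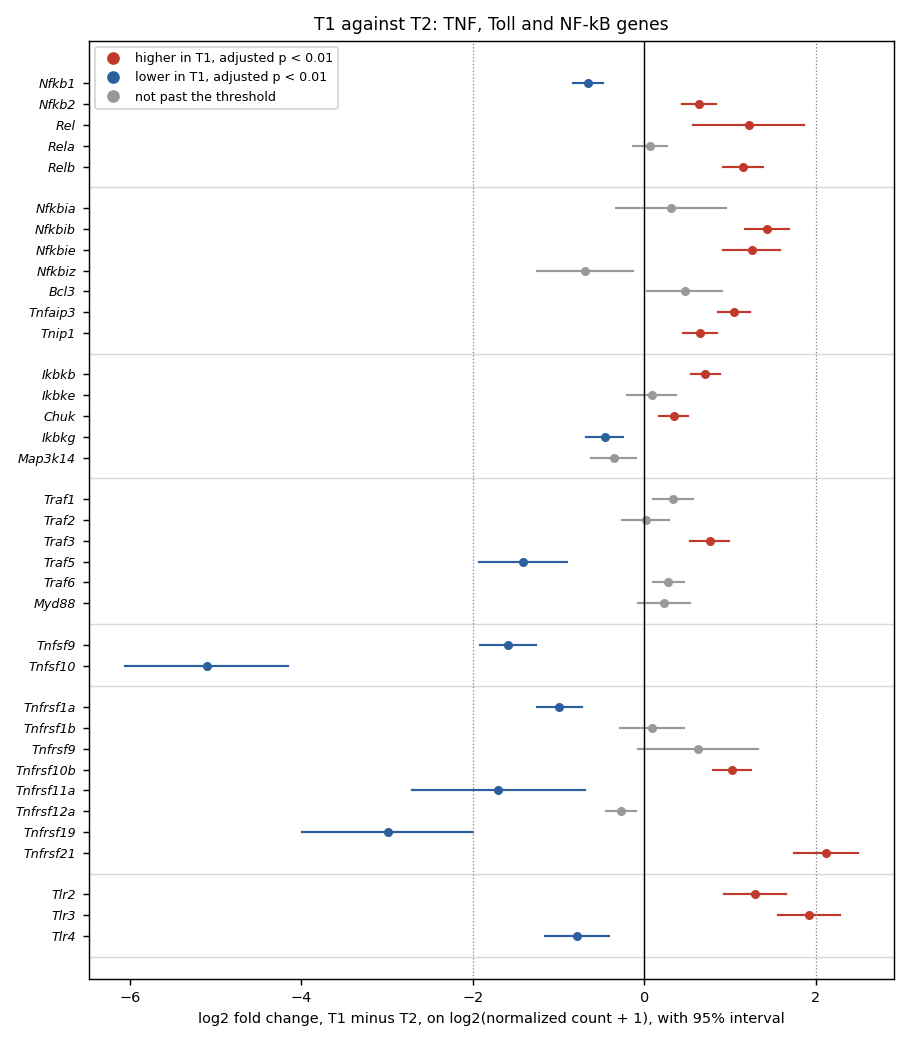
Log2 fold change of T1 against T2 cells (x axis, on log2(normalized count + 1)) with its 95% interval for the 36 genes compared, grouped by role, with red and blue for genes higher or lower in T1 cells at an adjusted p under 0.01 and dotted lines at -2 and 2. Of the 36 genes 14 are red and 9 blue, and the value of Tnfsf10, at the far left, depends on the pseudocount because T1 cells held 2 reads.

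Of the 5 kinase genes, Ikbkb and Chuk were higher in T1 cells and Ikbkg was lower, while 49.5% of all genes compared passed the threshold. Ikbkb encodes IKK beta, the main kinase of the canonical branch, and was 1.64-fold higher in T1 cells with 2201, 2016 and 2076 against 1258, 1294 and 1291 and a log2 fold change of 0.71 ± 0.08 (SE, adjusted p = 2.03e-05, limma). Chuk, the gene of IKK alpha, was 1.27-fold higher, with 1480.3, 1534 and 1523 against 1166, 1237 and 1170.1. The adjusted p of Chuk was 0.00289, and without T1 replicate 2, T2 replicate 1 or T2 replicate 3 it was 0.0154, 0.0145 and 0.0107 (limma). Ikbkg, which encodes the scaffold NEMO, was lower in T1 cells, with 716, 700.3 and 659 against 1017, 873 and 974. Its log2 fold change was -0.46 ± 0.10 (SE, adjusted p = 0.00181, limma), with an adjusted p of 0.0121 without T2 replicate 1. Map3k14, the gene of NIK, had 646, 681 and 570.0 in T1 cells and 730.5, 927 and 775 in T2 cells, a log2 fold change of -0.35 with an adjusted p of 0.0237 (limma). Ikbke, the gene of IKK epsilon, had 309, 262 and 319 in T1 cells and 268, 277 and 290.4 in T2 cells and overlapped, with a 95% interval of -0.20 to 0.37 for its log2 fold change. The genes of the canonical kinase and of its scaffold thus lay on opposite sides. Exons of Ikbkg, however, overlap those of a gene on the opposite strand, and the kit does not mark strand.

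Of the 6 adaptors, Traf3 was higher and Traf5 lower in T1 cells, while 49.5% of all genes compared passed the threshold. Traf3, whose product keeps NIK low in resting cells, had 3370.0, 3284 and 2977 normalized counts in T1 cells and 1785, 2189 and 1725 in T2 cells. The groups did not overlap, and the log2 fold change was 0.76 ± 0.10 (SE, adjusted p = 9.27e-05, limma). Traf5 was 2.69-fold higher in T2 cells, with 33.9, 48.4 and 50.8 in T1 cells and 99.9, 115 and 143 in T2 cells and a log2 fold change of -1.41 ± 0.23 (SE, adjusted p = 0.000375, limma). Traf6, the adaptor of Toll-like and interleukin-1 receptors, had 1082, 1123 and 1096 against 908, 898 and 907 and an adjusted p of 0.0107 (limma). It passed the threshold with quantile normalization (adjusted p = 0.00871, limma) and in DESeq2 (adjusted p = 0.00901). Traf1, itself a target of NF-kB, had 1016, 1174 and 923 in T1 cells and 778, 857 and 823 in T2 cells, a log2 fold change of 0.33 and an adjusted p of 0.0186, or 0.00485 without T1 replicate 3 (limma) and 0.00936 in DESeq2. Traf2 and Myd88, which encode adaptors of TNF receptors and of Toll-like receptors, overlapped between the populations. Traf2 had 896, 749 and 651 in T1 cells and 719, 774 and 758 in T2 cells, and Myd88 had 585, 568 and 430.4 against 407, 462 and 470.4. The 95% intervals of their log2 fold changes were -0.25 to 0.29 and -0.08 to 0.54. The log2 fold change of Traf2 itself was 0.02 and changed sign to -0.10 without T1 replicate 1 and to -0.01 without T2 replicate 1.

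The 2 ligands that could be compared were both lower in T1 cells, as were 24.4% of all genes compared. Of these, Tnfsf10 passed the filter on low values through T2 cells alone and so had to differ. Tnf, the gene of TNF itself, had no read in the T1 libraries and 1, 3 and 1 reads in the T2 libraries, at or under the 3 reads that a count of 0 allows in a library. Tnfsf9, the ligand of the costimulatory receptor 4-1BB, had 125, 119 and 106 normalized counts in T1 cells and 389.7, 362 and 309.9 in T2 cells. It was 3.03-fold higher in T2 cells without overlap, and the log2 fold change was -1.59 ± 0.15 (SE, adjusted p = 7.29e-06, limma). Tnfsf10 (chr3:27317028-27342427, GRCm38, plus strand) encodes TRAIL, a ligand that can trigger apoptosis through death receptors. It had 0, 0.930 and 0.976 in T1 cells, which came from 2 reads in all, and 67.6, 44.0 and 49.2 in T2 cells. The ratio of T2 to T1 cells was 81.7, with a 95% interval of 22.3 to 680 that covers counting error only. The adjusted p of Tnfsf10 was 3.54e-06 (limma).

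Of the 10 receptors of the TNF family, 8 were compared, and 2 were higher and 3 lower in T1 cells. Over all genes compared, 25.1% were higher and 24.4% lower. Among the 3 lower receptors, Tnfrsf19 and Tnfrsf11a passed the filter on low values through T2 cells alone and so had to differ. The receptor of TNF with a death domain, Tnfrsf1a, had 844, 762 and 1065 normalized counts in T1 cells and 1755, 1762 and 1737 in T2 cells. It was 1.97-fold higher in T2 cells, and the log2 fold change was -0.99 ± 0.12 (SE, adjusted p = 4.2e-05, limma). The second TNF receptor, Tnfrsf1b, had 596, 587 and 619 in T1 cells and 543, 440.3 and 751 in T2 cells. These values overlapped, and the log2 fold change of 0.09 (95% interval -0.29 to 0.46) turned to -0.09 without T2 replicate 2. Tnfrsf10b, the gene of a receptor of TRAIL, had 1285, 1324 and 1115 in T1 cells and 573, 615 and 633 in T2 cells. Its log2 fold change was 1.03 ± 0.10 (SE, adjusted p = 9.69e-06, limma), whereas RNA of TRAIL was higher in T2 cells. Of 6 other receptors of the TNF family that were compared, 2 were higher and 2 lower in T1 cells. The lower ones, Tnfrsf22 (log2 fold change -0.92) and Tnfrsf23 (-0.85), are named after their values were seen. Tnfrsf21 (chr17:43016555-43089189, GRCm38, plus strand), which encodes death receptor 6, had 896, 1084 and 938 in T1 cells and 206, 292 and 184 in T2 cells. It was 4.28-fold higher in T1 cells and passed both filters, with a log2 fold change of 2.12 ± 0.17 (SE, adjusted p = 2.42e-06, limma).

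Tnfrsf19 (chr14:60963875-61046490, GRCm38, minus strand), which encodes TROY, had 6.35, 3.72 and 6.83 normalized counts in T1 cells and 29.4, 44.0 and 99.3 in T2 cells. All T2 values were above all T1 values but spread widely, and the log2 fold change was -2.99 ± 0.45 (SE, adjusted p = 0.000215, limma). Tnfrsf11a, the gene of RANK, which drives NF-kB in mammary epithelium and osteoclasts, had 3.17, 5.58 and 5.86 in T1 cells and 9.79, 20.5 and 26.9 in T2 cells. Its adjusted p was 0.00773 (limma) and missed the threshold without T1 replicate 1 (0.0244), T1 replicate 2 (0.0125), T2 replicate 2 (0.029) or T2 replicate 3 (0.0404), and in DESeq2 (0.0122). Tnfrsf11b, the gene of osteoprotegerin, the decoy receptor of the RANK ligand, had no read in T1 cells and 0, 1 and 1 reads in T2 cells. Fn14 is encoded by Tnfrsf12a, which had 7549.5, 8262 and 7996 in T1 cells and 10282, 9605 and 8862 in T2 cells. The groups did not overlap, but the log2 fold change of -0.27 had an adjusted p of 0.0116, or 0.00797 without T2 replicate 3 and 0.0039 with quantile normalization (limma) and 0.00537 in DESeq2. The receptor 4-1BB, Tnfrsf9, had 68.8, 45.6 and 34.2 against 23.5, 29.7 and 39.9 and overlapped. Cd40 stayed under the filter, with 8, 9 and 18 reads in T1 cells and 2, 3 and 2 in T2 cells, without overlap. With no filter on low values Cd40 was called higher in T1 cells, with a log2 fold change of 1.86 and an adjusted p of 0.00371 (limma).

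All 3 Toll-like receptors among the 39 genes passed the threshold, as did 49.5% of all genes compared. Tlr5 and Tlr6, of the other pathway genes, did not (adjusted p = 0.0346 and 0.938, limma), and are named after their values were seen. Tlr3 (chr8:45395665-45411080, GRCm38, minus strand), the endosomal sensor of double-stranded RNA, had 386, 429 and 395 normalized counts in T1 cells and 104.8, 88.1 and 128 in T2 cells. It was 3.77-fold higher in T1 cells without overlap, with a log2 fold change of 1.92 ± 0.16 (SE, adjusted p = 3.71e-06, limma). Exons of Tlr3 overlap those of a gene on the opposite strand, and the kit does not mark strand. Tlr2, the sensor of bacterial lipoproteins, had 305, 288 and 407 in T1 cells and 128, 132 and 142 in T2 cells, and was 2.49-fold higher. The log2 fold change of Tlr2 was 1.29 ± 0.16 (SE, adjusted p = 5.82e-05, limma). Tlr4, the sensor of lipopolysaccharide, went the other way, with 256, 286 and 270.4 in T1 cells and 475, 363 and 587 in T2 cells. The T2 replicates of Tlr4 spread more widely but lay above all T1 replicates, with a log2 fold change of -0.78 ± 0.17 (SE, adjusted p = 0.00211, limma). Without T2 replicate 1 the adjusted p of Tlr4 was 0.0115. Ly96, the gene of MD-2 that TLR4 needs to bind lipopolysaccharide, was also higher in T2 cells, with 10.6, 13.0 and 22.4 in T1 cells and 55.8, 43.0 and 70.5 in T2 cells. Cd14, which hands lipopolysaccharide and lipoproteins to TLR4 and TLR2, was 4.09-fold higher in T1 cells, with 327, 319 and 375 against 69.5, 77.8 and 102. The fibroblast marker sum moved with the genes that were higher in T2 cells, through Pdgfra and not through Col1a1 or Col1a2, and its part in them was not tested.

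Levels per kilobase used the length of all annotated exons of a gene, 12.1 kb for Nfkb1 and 3.07 kb for Rela. That length can exceed the transcript in the cells, so different genes can be set side by side only roughly. On this measure Tnfrsf12a had the highest level of the 39 genes in both populations. It had 4108 ± 186 normalized counts per kilobase (SD, n = 3) in T1 cells and 4960.3 ± 368 in T2 cells. Rela stood at 767 ± 69.6 in T1 and 730.4 ± 39.7 in T2 cells. Nfkb2 stood at 1087 ± 109.9 in T1 cells, above Rela, and at 697 ± 45.4 in T2 cells, where its spread overlapped that of Rela. Levels of Nfkb1 were 244 ± 13.3 in T1 and 384 ± 22.0 in T2 cells, and those of Rel 26.1 ± 9.19 and 11.1 ± 4.02. Among the inhibitors, Nfkbia and Nfkbib stood at 704 ± 209.5 and 504 ± 37.8 in T1 cells, and at 590.0 ± 276 and 187 ± 20.8 in T2 cells. The spreads of Nfkbia and Nfkbib touched in T1 cells but not in T2 cells. Of the Toll-like receptors, Tlr2 was the highest in T1 cells at 111 ± 21.3 and Tlr4 the highest in T2 cells at 85.5 ± 20.1.

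**Figure D3:**
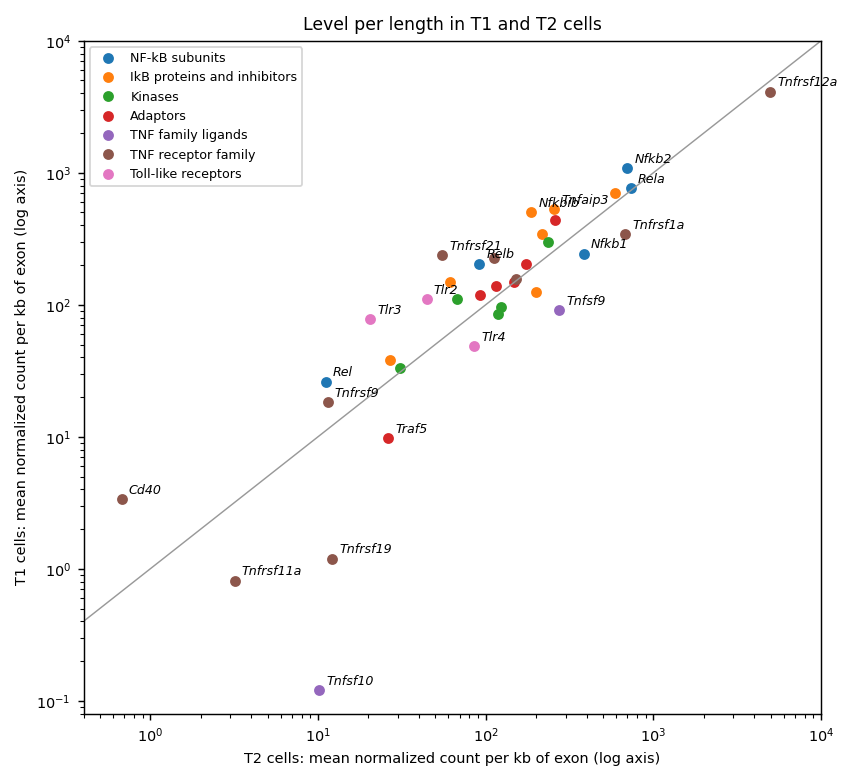
Mean normalized counts per kilobase of exon over 3 replicates in T2 (x axis) and T1 cells (y axis), both on log axes, with a diagonal of equal level. Tnf and Tnfrsf11b, at 0 in T1 cells, cannot be drawn. Rela lies on the diagonal, Tnfrsf21 and Tlr3 lie above it and Tnfsf10 and Tnfrsf19 well below it.

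Replicate 2 had the highest value in both populations for 10 of the 36 genes (27.8%), against 10.7% of all genes compared. For replicate 1 this held for 2 genes and for replicate 3 for 6 genes (16.7%, against 14.5% of all genes compared). The 10 genes were Nfkb2, Rel, Rela, Relb, Nfkbia, Nfkbiz, Chuk, Map3k14, Traf1 and Tnfrsf21. Rel was 1.76-fold above the mean of the other two replicates in both populations. The value of Nfkbia in replicate 2 was 1.57-fold above the other two in T1 cells and 2.10-fold above them in T2 cells, and that of Nfkbiz was 1.68-fold and 1.71-fold above. Nfkbib and Tnfaip3 did not share this pattern. Genes of the immediate early response, singled out after their values were seen, were also high in replicate 2. Atf3 had 578, 2228 and 684 normalized counts in T1 cells and 195, 2897 and 267 in T2 cells. Fos and Egr1 were likewise highest in replicate 2 of both populations. Without replicate 2 of both populations, 22 genes passed the threshold, 21 of them also among the 23 of all replicates, with Chuk and Tnfrsf11a lost (adjusted p of 0.0245 and 0.0349, limma) and Nfkbiz gained. In the same fit, with 2 samples of each population, 36.8% of all genes compared passed, against 49.5% with all replicates. The part of replicate 2 in the lost calls was not tested.

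**Figure D4:**
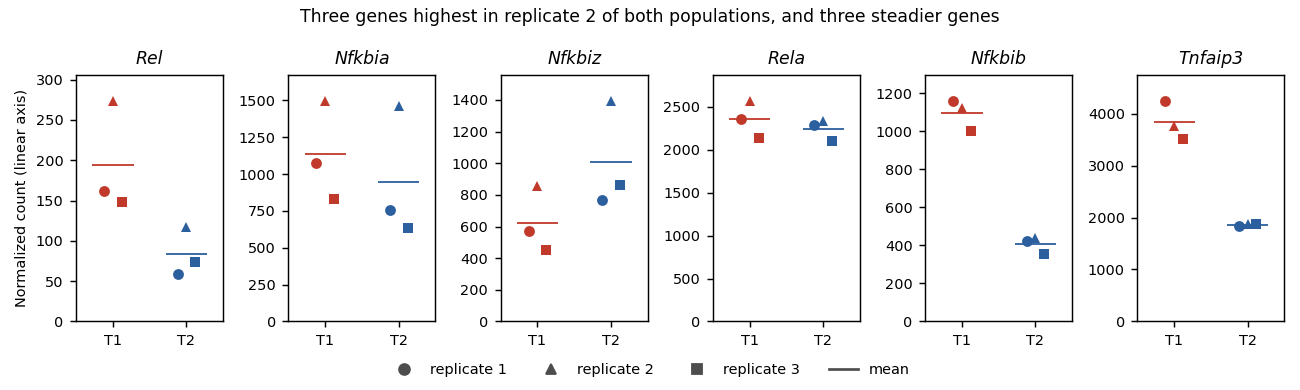
Normalized counts of Rel, Nfkbia, Nfkbiz, Rela, Nfkbib and Tnfaip3 by replicate number, with T1 cells in red and T2 cells in blue. Replicate 2 stands above the others in both populations for Rel, Nfkbia and Nfkbiz, and by less for Rela. Values of T1 and T2 cells do not overlap for Rel, Nfkbib and Tnfaip3.

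Of 96 other genes of the pathway 56 were compared, and 14 (25%) were higher and 11 (19.6%) lower in T1 cells, against the 25.1% and 24.4% of all genes compared. The median log2 fold change was 0.08, and without replicate 2 of both populations 8 were higher and 6 lower. In that fit 36.8% of all genes compared passed the threshold, against 49.5% with all replicates. The number of lower genes was 6 without T1 replicate 2, 6 without T2 replicate 3 and 7 without T2 replicate 1. The share over all genes was not counted for the fits without a single replicate. Fas, the gene of a death receptor, had 89.9, 104 and 80.0 normalized counts in T1 cells and 1, 1 and 2 reads in the T2 libraries. Il1rl1, which encodes the receptor of interleukin-33, had 32.8, 27.0 and 27.3 in T1 cells and 0, 0 and 1 reads in the T2 libraries. Fas and Il1rl1 reached the filter on low values through T1 cells alone and so had to differ, and Cd14 was the other gene past both filters as higher in T1 cells. The receptors of interleukin-1 went the other way, and are named after their values were seen. Il1rap, the shared accessory chain, was 3.12-fold higher in T2 cells, with 391, 424 and 323 in T1 and 1115, 1128 and 1307 in T2 cells, and Il1r1 had a log2 fold change of -0.63. Among adaptors and kinases of Toll and interleukin-1 receptors, 7 were compared, and the 3 that passed the threshold are likewise named after their values were seen. Ticam1, the gene of TRIF on which TLR3 relies, was lower in T1 cells, with a log2 fold change of -0.67 ± 0.16 (SE, adjusted p = 0.0037, limma). Irak1 was also lower, at -0.56, and Tollip, which encodes an inhibitor, was higher, at 0.35. Of 34 genes of the TNF receptor complex and its ubiquitin and kinase steps that were compared, 9 were higher and 4 lower in T1 cells, and 21 did not pass the threshold.

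Of 32 known target genes of NF-kB 22 were compared, of which 12 rose and 4 fell in T1 relative to T2 cells. Their median log2 fold change was 1.15. The shares that rose and fell were 54.5% and 18.2%, against 25.1% and 24.4% of all genes compared. Both filters were passed by 8 as higher and 2 as lower, against 4.17% and 4.2% of all genes compared. C3, Ccl5, Cxcl10, Il1a, Sele and Selp passed the filter on low values through one population alone and so had to differ. Without these 6 genes, 8 of 16 targets rose and 2 fell, and 4 passed both filters as higher and 0 as lower (limma). With such genes left out of all genes compared too, 24.3% were higher and 23.7% lower. Both filters were then passed by 247 of 10917 genes as higher and 291 as lower. Sele and Selp, which encode the selectins of activated endothelium, had 3 and 5 reads in all in the T1 libraries. In T2 cells Sele had 4600.2, 4567 and 4714 normalized counts and Selp 4444, 4449.7 and 5258. C3, the gene of a complement protein, had 859, 849 and 813 in T1 cells and 0, 6.14 and 5.57 in T2 cells. The chemokine gene Ccl5 had 115, 197 and 206 in T1 cells and 2.94, 1.02 and 7.42 in T2 cells. Cxcl10 had 95.2, 102 and 33.2 in T1 cells against 2.94, 0 and 2.78. Ptgs2, which encodes cyclooxygenase-2, had 23704, 27579 and 23355 in T1 cells and 2290.3, 5269 and 2329 in T2 cells, and was 7.55-fold higher in T1 cells. The log2 fold change of Ptgs2 was 3.03 ± 0.26 (SE, adjusted p = 4.33e-06, limma). Gadd45b was 15.1-fold higher and Cxcl5 7.47-fold higher in T1 cells, and Il1a and Lif also passed both filters. The 4 genes lower in T1 cells were Sele, Selp, Csf1 (log2 fold change -1.16) and Bcl2l1 (-0.64), the last 2 named after their values were seen. The 22 genes were selected from known targets in many cell types, and other pathways also act on them. The list was chosen with earlier results of these data known, so its shares cannot serve as a test.

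**Figure D5:**
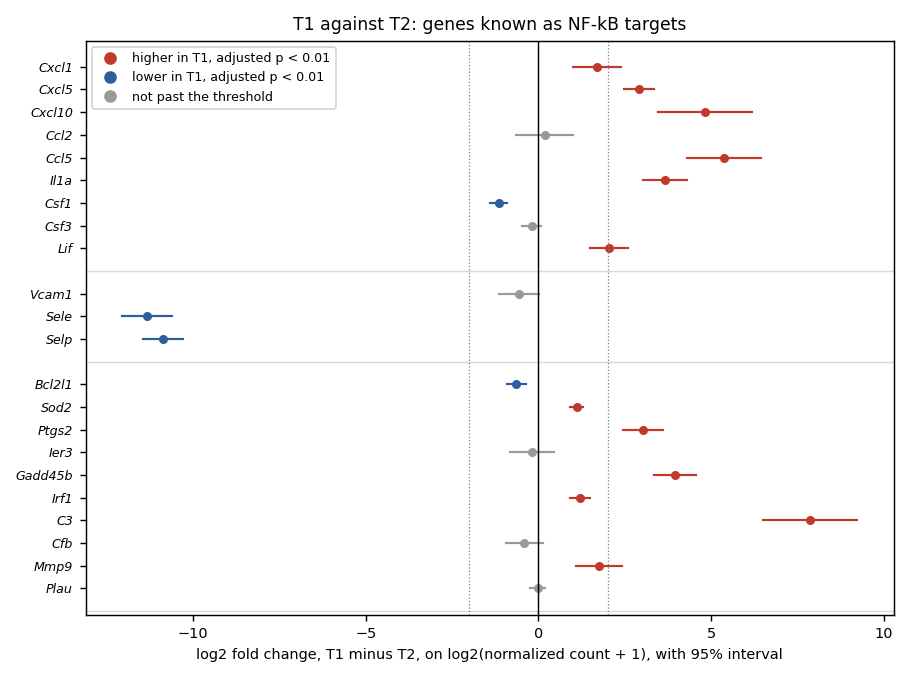
Log2 fold change of T1 against T2 cells (x axis) with its 95% interval for the 22 compared target genes of NF-kB, with red and blue for genes higher or lower in T1 cells at an adjusted p under 0.01. The 12 higher genes reach from Sod2 (1.10) to C3 (7.87), and Sele and Selp lie farthest to the left at -11.32 and -10.88, values that depend on the pseudocount.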

How the data were processed

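RNA of T1 and T2 cells was sequenced as poly(A) libraries made with TruSeq RNA V2, a kit that does not mark strand, on HiSeqX with paired ends (3 replicates each, 6 libraries). The authors trimmed reads with Trimmomatic, aligned them with TopHat2 to mm10, counted genes with HTSeq, and deposited normalized counts, which are a signal per gene: counts divided by DESeq2 size factors. Annotation and versions are not given in the sources used here.

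Whole reads could be recovered for 100% of values (tolerance 0.01 read). Genes that averaged 10 normalized counts or more over the libraries (11514 of 24129) were fitted with limma 3.58.1 (R 4.3.3), which modelled a variance trend on log2(normalized count + 1), without covariates, two-sided. P-values were Benjamini-Hochberg adjusted over all of them and called at 0.01, alone or with an absolute log2 fold change above 2. Python 3.11.15 was used for tables. Scripts were tested on simulated data. The number of reads sets the precision of low genes, and intervals on reads cover counting error only.

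All 39 genes were named or counted. Other genes named were the 4 largest fold changes of a list, those past both filters, and defining markers, or were said to be chosen after their values were seen. The members and lists were chosen with earlier results of these data known. Alternatives were pseudocounts of 0.5 and 5, no filter, a mean of at least 50, quantile normalization, no variance trend, edgeR 4.0.16 and DESeq2 1.42.0 on recovered reads, a replicate block and each replicate left out. Leaving out replicate 2 of both populations, or the genes whose mean reached the filter through one population, was chosen after seeing the data. Each of the 39 genes matched 1 gene of GENCODE (GRCm38), and 10 had exons overlapping those of another gene: Nfkb2, Nfkbib, Bcl3, Ikbke, Ikbkg, Map3k14, Traf5, Myd88, Tnfsf9 and Tlr3. Reads there may belong to either gene. Parental 4T1GFP cells were not analysed here.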

Additional observations from a re-analysis of the deposited data

How the results depend on the processing

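Of 572 log2 fold changes of single genes recomputed under the alternatives, 542 kept their direction and their side of the threshold, 16 lost the threshold, 10 gained it and 4 changed sign. Over all alternatives that leave out a replicate, Traf2 ranged from -0.10 to 0.13 and Tnfrsf1b from -0.089 to 0.295, and leaving out replicate 2 of both populations gave Tnfrsf1b -0.073. Without a replicate, the median over the 36 genes compared ranged from 0.207 to 0.356, the median of the other pathway genes from 0.049 to 0.133, their higher genes from 8 to 16, their lower genes from 6 to 10, and their lower genes past both filters from 0 to 1. With a mean of at least 50, and without genes that passed the filter through one population, 0 of the compared genes passed both filters as lower (limma), since Tnfsf10 and Tnfrsf19 were then not among them. Without such genes 1 other pathway gene passed both filters as higher, and the NF-kB targets had 2 lower, and 4 higher and 0 lower past both filters. Other pathway genes past both filters as higher were 5 with no filter and 1 at a mean of at least 50, against 3; as lower they were 1 with no filter, against 0. The median of the NF-kB targets was 1.32 with no filter, against 1.15. The cause of the other changes was not tested. With no filter 15 of the 39 genes were higher, Cd40 added. edgeR called the same 23 genes, and DESeq2 called 25, of which 22 were shared.

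Whether the replicate numbers pair the samples could not be settled. Deviations from the group means correlated at 0.057, 0.172 and 0.104 for replicates 1, 2 and 3, and at -0.152 to 0.072 for unlike numbers. T2 replicate 1 correlated best with T1 replicate 3 (0.072). With the replicate block, 24 of the 39 genes were called, all 23 and Nfkbiz (log2 fold change -0.69, adjusted p = 0.000572, limma), and 5780 of all genes compared, and no other call among the 39 genes changed. Depth limits Tnf, Tnfrsf11b and Cd40, which stayed under the filter, and the ratio of Tnfsf10.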

Other observations

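Genes of the pathway at or near 0 were also counted. Of 15 other ligands of the TNF family 14 had a mean under 10 normalized counts and 7 were at 0 in every library, and the highest value among the 14 was 27.0. Of 17 other Toll and interleukin-1 receptors and co-receptors 9 were under a mean of 10, and 5 of these were at 0 in every library. Of 18 other receptors of the TNF family 12 were under a mean of 10. Among the NF-kB targets, Il6 had at most 2 reads, Cxcl2 at most 3, Icam1 at most 2 and Nos2 at most 2 reads in a library, named after their values were seen.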
